A study of Mus musculus with 12 samples.

Results

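The nuclear genes of oxidative phosphorylation encode most subunits of the mitochondrial respiratory chain and of ATP synthase. They were followed across 5 libraries of mouse cells sorted for Brachyury (T), a T-box factor needed for the primitive streak and early mesoderm. Members were taken by symbol: Nduf subunits for complex I, Sdha to Sdhd for complex II, Uqcr genes for complex III, Cox4 to Cox8 genes for complex IV and Atp5 genes for complex V. The rule used no measured value and found 84 of 23421 gene symbols, of which 37 belonged to complex I, 4 to complex II, 8 to complex III, 18 to complex IV and 17 to complex V. Subunits encoded by mitochondrial DNA were not analysed here.

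Complexes I and II pass electrons from NADH and succinate to ubiquinone, complex III passes them to cytochrome c and complex IV to oxygen. Complexes I, III and IV pump protons, and complex V uses the returning protons to make ATP. Several complex IV subunits and the ring subunit c of complex V have more than 1 gene, and the alternative genes are known for use in different tissues, such as muscle, testis or lung.

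The T_Y88A genotype carries a substitution in T. The groups were Day 4 T_Y88A cells (1 library), Day 4 wild type cells (1 library), embryonic T_Y88A cells of Theiler stages TS13 and TS12 (1 library each) and embryonic cells labelled wild type from TS12/TS13 together (1 library). Cells of both kinds had a 129S2/C57Bl6J background. The Day 4 cells came from embryonic stem cells aggregated into embryoid bodies, given BMP4 for 18 hours in serum-free medium and then WNT3A with FGF8. The series' design text calls the embryonic controls T_het, so their genotype is given here as labelled and may be heterozygous. Neither the age of the mice nor the number of embryos or cultures behind a library was stated, nor whether the Day 4 cells were 1 clone per genotype. P-values therefore measure only the spread between these libraries, drawn toward that of other genes, and part of it may be technical. In the embryo fit that spread is between T_Y88A TS13 and T_Y88A TS12, so it includes any stage difference. In the fit over 5 libraries it also includes any difference in the genotype effect between culture and embryo, unless that is fitted.

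Values were FPKM, fragments scaled by gene length and library size. Levels of different genes are compared only approximately, since 9 members have a pseudogene named after them that could share fragments. Read totals cannot be had from FPKM and the absolute depth is unknown. Relative to the embryonic wild type library, depth was estimated as 0.493 for Day 4 T_Y88A and 1.04 for Day 4 wild type. It was estimated as 0.971 for T_Y88A TS13 and 0.754 for T_Y88A TS12. Of the 112 to 193 low genes used per library, 16.5% to 25.9% lay at the step that gave these estimates. T, the sorted gene, was present in every library at 26.99 to 72.9 FPKM, lowest in T_Y88A TS13. The Day 4 T_Y88A library stood apart in the ribosomal RNA precursor Rn45s, at 6061 FPKM, against 1801 FPKM in Day 4 wild type cells and 1308 to 2537 FPKM in the embryo libraries. Globins and other erythroid markers summed to 2.35 FPKM in Day 4 T_Y88A and 0.698 FPKM in Day 4 wild type cells, against 1383 to 8127 FPKM in the embryo libraries. The embryo sums were nearly all globins and most of the Day 4 sums was Gata1. Gata1 had 2.08 FPKM in Day 4 T_Y88A and 0.537 FPKM in Day 4 wild type cells, against 1.99, 1.32 and 5.84 FPKM in T_Y88A TS13, T_Y88A TS12 and wild type embryo cells. In bulk samples, fewer cells of a type and less RNA per cell cannot be told apart.

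Taken as a group, the 84 genes held a nearly constant share of the summed FPKM, small RNA genes left out. Their FPKM summed to 2.13% of that total in Day 4 T_Y88A, 2.1004% in Day 4 wild type, 1.98% in T_Y88A TS13, 2.15% in T_Y88A TS12 and 2.02% in wild type embryo cells. Single genes moved more: on the log2(FPKM + 1) scale, the gap between the highest and lowest library had a median of 0.88 over the 80 genes that averaged at least 1 FPKM, against 0.87 over all 11604 genes above that filter. The gap reached 1 or more for 29 of the 80 genes (36.2%), against 41.9% of all genes. The median level of a complex was steadiest in complex II and moved most in complex V, where it was 124.8 FPKM in Day 4 T_Y88A and 85.9 FPKM in Day 4 wild type cells, against 136 to 160.1 FPKM in the embryo libraries. The plot of levels by complex shows these medians and the wide spread within each complex.

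**Figure D1:**
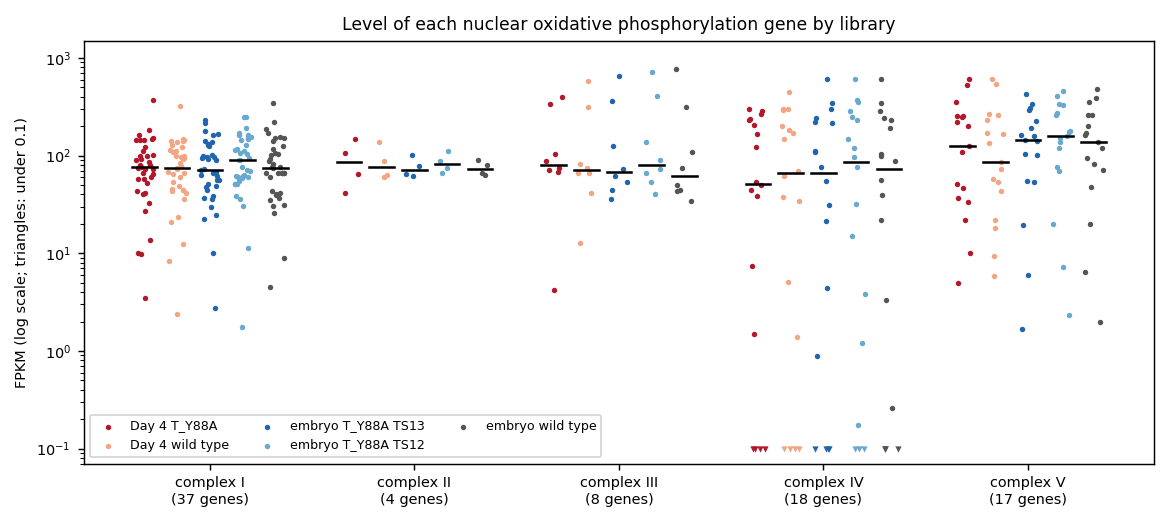
FPKM (log scale) of each gene by complex, with Day 4 T_Y88A, Day 4 wild type, T_Y88A TS13, T_Y88A TS12 and wild type embryo libraries side by side; points are genes, black lines medians, and triangles values under 0.1 FPKM. The median of complex II lies between 71.8 and 85.5 FPKM in all 5 libraries and that of complex V between 85.9 and 160.1 FPKM, while complex IV holds both Cox6c at up to 612 FPKM and genes listed at 0.

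The levels differed by complex and by gene. Uqcrb, a small subunit of complex III, had 339.6 FPKM in Day 4 T_Y88A and 587 FPKM in Day 4 wild type cells, against 650.0, 711 and 772 FPKM in T_Y88A TS13, T_Y88A TS12 and wild type embryo cells. Uqcrh, the hinge protein that contacts cytochrome c1, had 394 FPKM in Day 4 T_Y88A and 314 FPKM in Day 4 wild type cells, against 363, 404 and 313 FPKM in T_Y88A TS13, T_Y88A TS12 and wild type embryo cells. Uqcrb was therefore the higher of this pair in 4 of the 5 libraries and the lower in Day 4 T_Y88A.

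Cox6c, a small subunit of complex IV, had 264 FPKM in Day 4 T_Y88A and 444 FPKM in Day 4 wild type cells, against 612, 609 and 609.7 FPKM in T_Y88A TS13, T_Y88A TS12 and wild type embryo cells. Cox7b, another small subunit, had 235 FPKM in Day 4 T_Y88A and 291 FPKM in Day 4 wild type cells, against 346, 372 and 348 FPKM in T_Y88A TS13, T_Y88A TS12 and wild type embryo cells. In complex V, Atp5b, the catalytic beta subunit, had the highest mean over the 5 libraries, with 534 FPKM in Day 4 T_Y88A and 613 FPKM in Day 4 wild type cells, against 428, 459 and 481 FPKM in T_Y88A TS13, T_Y88A TS12 and wild type embryo cells. Its lowest value was that of T_Y88A TS13. The alpha subunit gene Atp5a1 lay above it in Day 4 T_Y88A, and the stalk gene Atp5h was the second highest of the complex in each embryo library.

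At the other end, Cox6a2 and Cox8b, muscle isoforms, and Cox8c, a testis isoform, were listed at 0 in all 5 libraries. Cox7b2, also a testis isoform, was listed at 0 in 4 libraries and at 0.176 FPKM in T_Y88A TS12. These 4 genes failed the filter. The largest mean among them was 0.0352 FPKM, and the lowest mean that passed was 2.97 FPKM, for Ndufa4l2. The ubiquitous form Cox6a1 had 49.8 FPKM in Day 4 T_Y88A and 34.6 FPKM in Day 4 wild type cells, against 31.3, 31.6 and 39.1 FPKM in T_Y88A TS13, T_Y88A TS12 and wild type embryo cells, and the common forms Cox7b and Cox8a were at 235 to 372 and 77.0 to 165 FPKM. Ranks of the 80 levels were most alike within a system: Spearman's rho was 0.946 for Day 4 T_Y88A with Day 4 wild type, 0.986 for T_Y88A TS13 with T_Y88A TS12, 0.960 and 0.975 for the T_Y88A embryo libraries with wild type, and 0.829 to 0.891 between Day 4 and embryo libraries. These coefficients run over genes that share each library's depth and carry no test.

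The largest differences separated culture from embryo. Of 80 genes, 18 rose and 24 fell in the 2 Day 4 libraries relative to the 3 embryo libraries, by limma on log2(FPKM + 1) with genotype as a covariate and a Benjamini-Hochberg adjusted p under 0.05. The same test called 25.9% of all 11604 genes higher and 26% lower, so the members' shares of 22.5% and 30% were near the background. The median difference was -0.04 for the members and -0.01 for all genes. The split between directions depended on the scaling: with values rescaled to TPM, 24 members were higher and 19 lower and the median of all genes moved to 0.13, and with quantile normalization 26 were higher and 16 lower. Differences below are on the log2(FPKM + 1) scale, Day 4 minus embryo, ± SE. Whether Day 4 and embryo values overlap is described for single genes, mostly ones picked for their call. It was not counted over all genes and adds no support to a call.

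Of the 42 genes, 19 kept their call under each alternative run for them, which were 15 for each gene but Atp5s and Cox7a1, where they were 14 because the stricter filter removed both: Atp5a1, Atp5s, Cox6b2, Cox7a1, Cox7a2l, Cox8a, Ndufa12 and Sdhd higher, and Atp5g1, Atp5g3, Atp5j, Cox4i2, Ndufa3, Ndufa5, Ndufa8, Ndufs6, Ndufv3, Sdha and Uqcrq lower. The same count was not made over all genes, so it does not set the members apart from other genes. Culture and embryo libraries also differ in any date or batch of preparation, which cannot be told apart from the system. Pluripotency markers Pou5f1 and Nanog together had 401 and 308 FPKM in the Day 4 libraries, against 9.45 to 60.4 FPKM in the embryo libraries. The presomitic markers Tbx6, Msgn1 and Dll1 together had 1.89 and 2.41 FPKM at Day 4, against 12.1 to 98.1 FPKM, with Msgn1 at 0 in Day 4 T_Y88A. Endoderm markers Foxa2, Sox17 and Trh together had 201 and 131 FPKM at Day 4, against 1.46 to 7.35 FPKM. Sox17 alone overlapped, at 1.99 and 1.37 FPKM, against 0.662 to 1.54 FPKM. Cardiac muscle markers summed to 23.5 and 20.3 FPKM at Day 4, against 1.66 to 2.82 FPKM. The Day 4 sums were nearly all Actc1, and Tnnt2 was lower at Day 4. Neural marker sums overlapped between the systems, and most of each sum was Sox2. Pax3 was lower at Day 4, at 0.101 and 0.210 FPKM, against 2.25 to 10.8 FPKM in the embryo libraries. Pax6 was also lower, at 0.0761 and 0.0815 FPKM, against 2.16 to 5.80 FPKM. Sox1 and Sox2 overlapped. The part of these cell types in the differences was not tested.

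**Figure D2:**
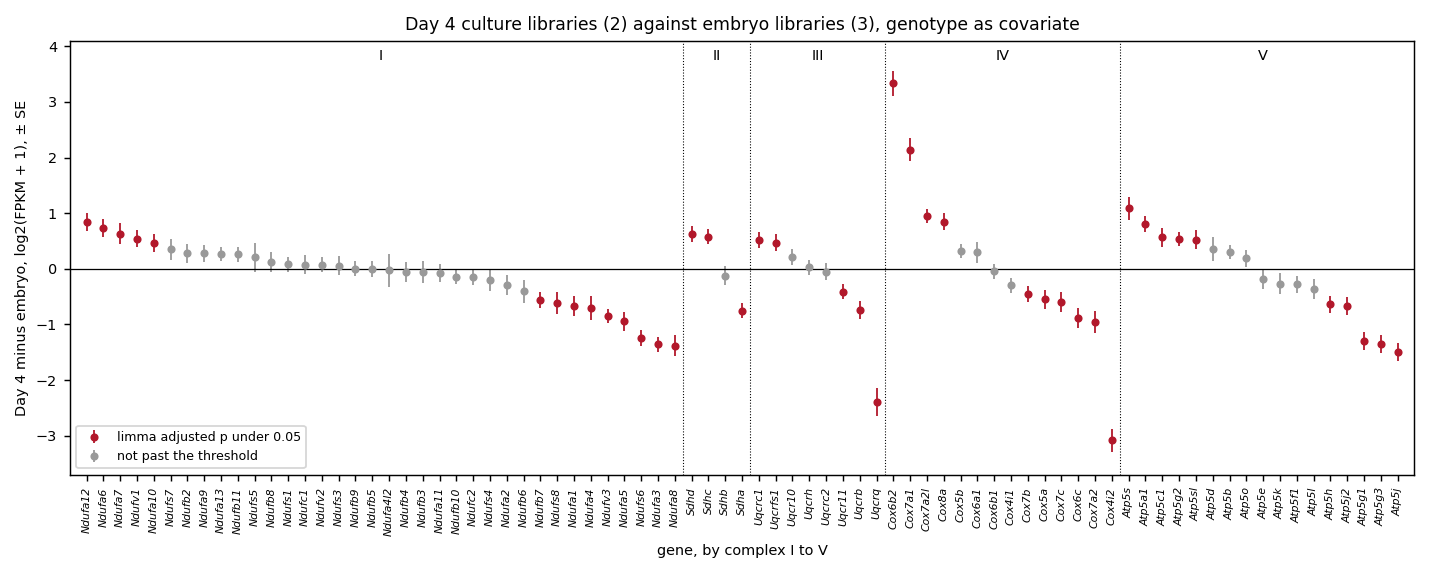
Difference between 2 Day 4 and 3 embryo libraries in log2(FPKM + 1) for 79 of the 80 genes, by complex, from limma with genotype as a covariate; points are estimates, bars 1 SE, and red marks an adjusted p under 0.05. Cox6b2 at 3.34 and Cox4i2 at -3.08 lie at the ends, and every complex holds genes on both sides of 0.

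Isoform genes of complex IV gave the 2 widest differences of the 80. Cox6b2, the testis form of subunit 6B, had 38.8 FPKM in Day 4 T_Y88A and 61.6 FPKM in Day 4 wild type cells, against 4.44, 3.82 and 3.36 FPKM in T_Y88A TS13, T_Y88A TS12 and wild type embryo cells. Every Day 4 value lay above every embryo value, and the difference was 3.34 ± 0.22, adjusted p = 2.27e-05. Its partner Cox6b1, the ubiquitous form, had 299 FPKM in Day 4 T_Y88A and 301 FPKM in Day 4 wild type cells, against 302, 350.5 and 288 FPKM in T_Y88A TS13, T_Y88A TS12 and wild type embryo cells, a difference of -0.04 ± 0.14, adjusted p = 0.808. Cox6b2 thus made up 11.5% of the pair's FPKM in Day 4 T_Y88A and 17.0% in Day 4 wild type, against 1.08% to 1.45% in the embryo libraries.

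Cox4i2, the form of subunit 4 known from lung and from low oxygen, went the other way. It had 1.48 FPKM in Day 4 T_Y88A and 1.37 FPKM in Day 4 wild type cells, against 21.5, 15.0 and 21.9 FPKM in T_Y88A TS13, T_Y88A TS12 and wild type embryo cells, with no overlap between Day 4 and embryo values. The difference was -3.08 ± 0.21, adjusted p = 2.40e-05, and Cox4i2 held 0.717% and 0.685% of the Cox4i1 and Cox4i2 total at Day 4, against 4.99% to 8.72% in embryos. The common form Cox4i1 had 205 FPKM in Day 4 T_Y88A and 199 FPKM in Day 4 wild type cells, against 244, 285 and 229.6 FPKM in T_Y88A TS13, T_Y88A TS12 and wild type embryo cells, a difference of -0.30 ± 0.14, adjusted p = 0.106. In the RefSeq table Cox4i2 (chr2:152753916-152765039) overlaps Bcl2l1, and it is not given whether fragments were counted by strand.

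The 3 genes for subunit 7A also shifted. Cox7a2l encodes a protein known for a part in joining complexes III and IV into supercomplexes, which were not measured here. Cox7a2l had 229 FPKM in Day 4 T_Y88A and 184 FPKM in Day 4 wild type cells. Its embryo values were 112, 120.3 and 98.2 FPKM in T_Y88A TS13, T_Y88A TS12 and wild type cells. The difference was 0.95 ± 0.13, adjusted p = 0.000582. Cox7a2, the common form, had 53.2 FPKM in Day 4 T_Y88A and 70.0 FPKM in Day 4 wild type cells, against 109.7, 149 and 104 FPKM in T_Y88A TS13, T_Y88A TS12 and wild type embryo cells, a difference of -0.96 ± 0.20, adjusted p = 0.00499. Cox7a1, the heart and muscle form, stayed at low levels, with 7.46 FPKM in Day 4 T_Y88A and 5.07 FPKM in Day 4 wild type cells, against 0.879, 1.22 and 0.263 FPKM in T_Y88A TS13, T_Y88A TS12 and wild type embryo cells. Its difference was 2.14 ± 0.21, adjusted p = 0.000121. Cox7a2l made up 79.1% and 71.1% of this set at Day 4, against 44.4% to 50.3% in the embryo libraries.

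Cox8a, a small subunit near the core of complex IV, rose at Day 4, with 165 FPKM in Day 4 T_Y88A and 148 FPKM in Day 4 wild type cells, against 77.0, 97.3 and 88.7 FPKM in T_Y88A TS13, T_Y88A TS12 and wild type embryo cells. The difference was 0.84 ± 0.15, adjusted p = 0.00223. Cox6c, at the levels given above, differed by -0.89 ± 0.18, adjusted p = 0.00453. Cox5a, Cox7b and Cox7c were also lower, with adjusted p of 0.0271, 0.0272 and 0.0277. Without the Day 4 T_Y88A library, Cox5a, Cox6c, Cox7a2, Cox7b and Cox7c no longer passed (adjusted p 0.0603 to 0.491). Cox7b and Cox7c also failed without either T_Y88A embryo library, and Cox5a without T_Y88A TS12, wild type embryo or Day 4 wild type cells (adjusted p 0.0686 to 0.101).

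**Figure D3:**
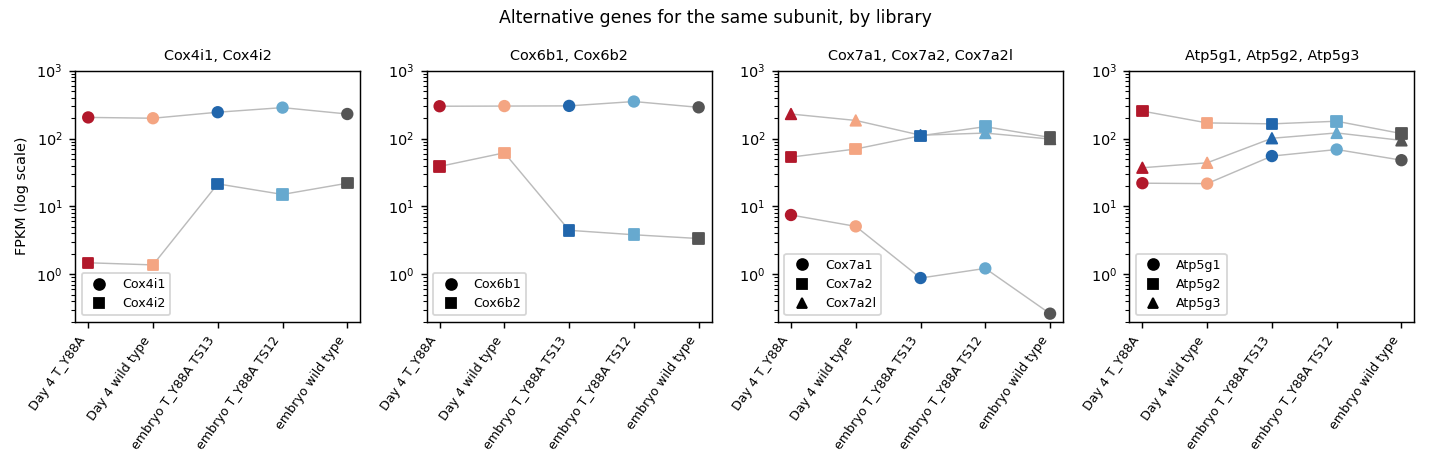
FPKM (log scale) of alternative genes for the same subunit, in Day 4 T_Y88A, Day 4 wild type, T_Y88A TS13, T_Y88A TS12 and wild type embryo libraries; each point is 1 library and grey lines join the values of 1 gene. Cox6b2, Cox7a1, Cox7a2l and Atp5g2 are higher at Day 4 in the fit, and Cox4i2, Cox7a2, Atp5g1 and Atp5g3 lower.

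The promoters of the Cox6b pair are shown because only Cox6b2 passed the test between the systems. Both are RefSeq windows on GRCm38.p6 (mm10), minus strand, 250 bases before to 50 after the annotated start, with matches to 3 motif cores in capitals. The cores were CATGCGC for NRF1, CCGGAAG for ETS factors such as GABP, and AAGATGGC for YY1, searched on both strands. The first window is chr7:4753045-4753344 and the second chr7:30626065-30626364.
Cox6b2: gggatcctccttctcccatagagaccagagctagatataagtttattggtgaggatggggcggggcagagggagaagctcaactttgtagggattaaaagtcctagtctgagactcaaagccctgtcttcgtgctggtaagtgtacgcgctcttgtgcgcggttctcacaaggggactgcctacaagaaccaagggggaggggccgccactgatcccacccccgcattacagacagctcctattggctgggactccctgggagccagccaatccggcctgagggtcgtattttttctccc
Cox6b1: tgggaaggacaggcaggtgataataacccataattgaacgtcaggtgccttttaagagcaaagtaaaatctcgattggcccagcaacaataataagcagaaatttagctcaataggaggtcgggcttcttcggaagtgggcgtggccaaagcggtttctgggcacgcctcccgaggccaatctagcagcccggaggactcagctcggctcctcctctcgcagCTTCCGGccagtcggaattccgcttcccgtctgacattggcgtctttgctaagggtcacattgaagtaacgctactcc
The Cox6b1 window holds 1 ETS core on the opposite strand, with its first base at -28 from the start. None of the 3 cores is in the Cox6b2 window, which says only that these letters do not occur there. Of the 69 members with a promoter in the table, the NRF1 core occurred in 18.8%, against 5.4% of 17492 protein-coding genes. The ETS core occurred in 23.2%, against 12.9%, and the YY1 core in 15.9%, against 3.57%. The YY1 matches fell in 7 complex I and 4 complex V genes. NRF1 and GABP are known activators of respiratory chain genes, and a match is not evidence of binding.

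In complex V the 3 genes for ring subunit c, which encode the same mature protein, moved in opposite directions. Atp5g2 had 253 FPKM in Day 4 T_Y88A and 169.8 FPKM in Day 4 wild type cells, against 164, 179.6 and 118 FPKM in T_Y88A TS13, T_Y88A TS12 and wild type embryo cells, a difference of 0.54 ± 0.13, adjusted p = 0.00853. Atp5g1 had 22.0 FPKM in Day 4 T_Y88A and 21.6 FPKM in Day 4 wild type cells, against 55.1, 68.8 and 47.9 FPKM in T_Y88A TS13, T_Y88A TS12 and wild type embryo cells, a difference of -1.30 ± 0.16, adjusted p = 0.000386. Atp5g3 had 37.1 FPKM in Day 4 T_Y88A and 43.8 FPKM in Day 4 wild type cells, against 101, 121 and 93.8 FPKM in T_Y88A TS13, T_Y88A TS12 and wild type embryo cells, a difference of -1.35 ± 0.16, adjusted p = 0.000341. Day 4 and embryo values did not overlap for Atp5g1 and Atp5g3, while Atp5g2 in Day 4 wild type lay inside the embryo range; its call ended without the genotype covariate (adjusted p = 0.136). The 3 genes together had 312 and 235 FPKM in Day 4 T_Y88A and wild type cells, against 320, 369 and 260.0 FPKM in T_Y88A TS13, T_Y88A TS12 and wild type embryo cells. Atp5g2 made up 81.1% and 72.2% of this sum at Day 4, against 45.5% to 51.3% in the embryo libraries.

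The catalytic head of complex V rose in part. Atp5a1, the alpha subunit, had 610.4 FPKM in Day 4 T_Y88A and 545 FPKM in Day 4 wild type cells, against 307, 334 and 349.7 FPKM in T_Y88A TS13, T_Y88A TS12 and wild type embryo cells, a difference of 0.80 ± 0.14, adjusted p = 0.00198. Atp5c1, the gamma subunit of the central stalk, had 353 FPKM in Day 4 T_Y88A and 268 FPKM in Day 4 wild type cells, against 190.1, 259.6 and 199 FPKM in T_Y88A TS13, T_Y88A TS12 and wild type embryo cells, a difference of 0.56 ± 0.17, adjusted p = 0.0225. The beta subunit Atp5b differed by 0.30 ± 0.13, adjusted p = 0.086. Day 4 values lay above all embryo values for each of these genes, and the call for Atp5c1 ended without Day 4 T_Y88A (adjusted p = 0.193) or T_Y88A TS13 (adjusted p = 0.0805).

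The genes that fell lay in the peripheral stalk and the membrane part, but not all genes of these parts fell. The stalk genes Atp5f1 and Atp5o differed by -0.28 and 0.19 (adjusted p 0.163 and 0.343). The membrane genes Atp5k and Atp5l differed by -0.27 and -0.36 (adjusted p 0.256 and 0.116), and the ring gene Atp5g2 rose. Atp5j, coupling factor 6 of the stalk, had 46.8 FPKM in Day 4 T_Y88A and 72.8 FPKM in Day 4 wild type cells, against 158, 160.1 and 163 FPKM in T_Y88A TS13, T_Y88A TS12 and wild type embryo cells, a difference of -1.49 ± 0.16, adjusted p = 0.000218. Atp5h, subunit d of the stalk, had 250.3 FPKM in Day 4 T_Y88A and 231 FPKM in Day 4 wild type cells, against 334, 411 and 388 FPKM in T_Y88A TS13, T_Y88A TS12 and wild type embryo cells, a difference of -0.64 ± 0.15, adjusted p = 0.0072. Atp5j2, subunit f of the membrane part, had 109 FPKM in Day 4 T_Y88A and 85.9 FPKM in Day 4 wild type cells, against 144, 153 and 172 FPKM in T_Y88A TS13, T_Y88A TS12 and wild type embryo cells, a difference of -0.68 ± 0.16, adjusted p = 0.00828. All 3 were lower in both Day 4 libraries than in every embryo library. The calls for Atp5h and Atp5j2 ended with quantile normalization, at adjusted p of 0.119 and 0.0505.

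Atp5j (chr16:84827871-84835857) overlaps Gabpa, which encodes an ETS-family activator of respiratory genes, so without strand information their fragments cannot be told apart where they overlap. Atp5j was the Atp5 gene with the largest fall, and the table gives it 2 annotated starts. The window of the upstream start (chr16:84835576-84835875, minus strand) holds none of the 3 motif cores. That of the downstream start (chr16:84834927-84835226, minus strand) holds 2 in capitals, YY1 at -88 and ETS at -61, and is the one shown, picked for its matches.
Atp5j: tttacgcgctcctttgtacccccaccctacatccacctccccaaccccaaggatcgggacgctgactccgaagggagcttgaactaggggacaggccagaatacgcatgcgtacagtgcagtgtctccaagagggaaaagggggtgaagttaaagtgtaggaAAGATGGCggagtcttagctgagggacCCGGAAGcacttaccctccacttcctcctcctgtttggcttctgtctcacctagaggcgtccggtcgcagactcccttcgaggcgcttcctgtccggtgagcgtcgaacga

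Among the remaining Atp5 symbols, Atp5s and Atp5sl carry older names of genes that RefSeq lists as Dmac2l and Dmac2, the second a complex I assembly factor in human cells. Atp5s had 4.99 FPKM in Day 4 T_Y88A and 5.86 FPKM in Day 4 wild type cells, against 1.67, 2.34 and 1.99 FPKM in T_Y88A TS13, T_Y88A TS12 and wild type embryo cells, a difference of 1.09 ± 0.20, adjusted p = 0.00277. Atp5sl had 10.1 FPKM in Day 4 T_Y88A and 9.42 FPKM in Day 4 wild type cells, against 6.01, 7.20 and 6.45 FPKM in T_Y88A TS13, T_Y88A TS12 and wild type embryo cells, a difference of 0.52 ± 0.17, adjusted p = 0.0334. Both were low in every library and higher in each Day 4 library. The call for Atp5sl ended when any 1 of the 5 libraries was left out (adjusted p 0.0592 to 0.175). The 7 complex V genes that did not pass, Atp5b among them, differed by -0.36 to 0.36.

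Complex I had 5 genes higher and 9 lower at Day 4, of 37. Ndufa12, an accessory subunit of the matrix arm, had 374 FPKM in Day 4 T_Y88A and 320.0 FPKM in Day 4 wild type cells, against 168, 191 and 220.0 FPKM in T_Y88A TS13, T_Y88A TS12 and wild type embryo cells, a difference of 0.84 ± 0.16, adjusted p = 0.00317. Ndufv1, the core subunit that binds NADH, had 98.4 FPKM in Day 4 T_Y88A and 73.0 FPKM in Day 4 wild type cells, against 56.2, 60.0 and 60.5 FPKM in T_Y88A TS13, T_Y88A TS12 and wild type embryo cells, a difference of 0.54 ± 0.15, adjusted p = 0.0187. Ndufa6, an accessory subunit of the LYR protein family, had 181 FPKM in Day 4 T_Y88A and 123 FPKM in Day 4 wild type cells, against 89.6, 94.9 and 91.3 FPKM in T_Y88A TS13, T_Y88A TS12 and wild type embryo cells, a difference of 0.74 ± 0.16, adjusted p = 0.00525. For these genes both Day 4 values exceeded every embryo value.

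Ndufa7, an accessory subunit, had 122 FPKM in Day 4 T_Y88A and 140.3 FPKM in Day 4 wild type cells, against 95.5, 104 and 65.7 FPKM in T_Y88A TS13, T_Y88A TS12 and wild type embryo cells, a difference of 0.63 ± 0.19, adjusted p = 0.0238. Ndufa10, an accessory subunit related to nucleoside kinases, had 101 FPKM in Day 4 T_Y88A and 98.3 FPKM in Day 4 wild type cells, against 64.0, 60.3 and 87.96 FPKM in T_Y88A TS13, T_Y88A TS12 and wild type embryo cells, a difference of 0.47 ± 0.16, adjusted p = 0.0381. Both were higher in each Day 4 library than in each embryo library. Some of these calls ended when single libraries were left out, which also leaves fewer residual degrees of freedom. The call for Ndufa10 ended without Day 4 T_Y88A, T_Y88A TS13 or T_Y88A TS12. That for Ndufa7 ended without T_Y88A TS13, wild type embryo or Day 4 wild type cells. Ndufv1 ended without Day 4 T_Y88A or T_Y88A TS13, and Ndufa6 without Day 4 T_Y88A.

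The subunits that fell furthest in complex I were accessory ones. Ndufa3 had 61.1 FPKM in Day 4 T_Y88A and 64.2 FPKM in Day 4 wild type cells, against 163, 146 and 171 FPKM in T_Y88A TS13, T_Y88A TS12 and wild type embryo cells, a difference of -1.36 ± 0.13, adjusted p = 0.000126. Ndufs6, a zinc-binding subunit added late in assembly, had 43.0 FPKM in Day 4 T_Y88A and 44.0 FPKM in Day 4 wild type cells, against 96.5, 117 and 100.4 FPKM in T_Y88A TS13, T_Y88A TS12 and wild type embryo cells, a difference of -1.24 ± 0.14, adjusted p = 0.000284. Ndufa8, which faces the intermembrane space, had 9.77 FPKM in Day 4 T_Y88A and 12.4 FPKM in Day 4 wild type cells, against 24.4, 35.7 and 30.2 FPKM in T_Y88A TS13, T_Y88A TS12 and wild type embryo cells, a difference of -1.38 ± 0.19, adjusted p = 0.000705. In each gene both Day 4 values lay below every embryo value.

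Ndufa5 was the second most abundant complex I gene by mean FPKM, with 145 FPKM in Day 4 T_Y88A and 137 FPKM in Day 4 wild type cells, against 215, 246 and 344 FPKM in T_Y88A TS13, T_Y88A TS12 and wild type embryo cells, a difference of -0.95 ± 0.18, adjusted p = 0.00269. Ndufa4, counted here by its name although its protein is now placed in complex IV, had 110.1 FPKM in Day 4 T_Y88A and 139.8 FPKM in Day 4 wild type cells, against 231, 249 and 154 FPKM in T_Y88A TS13, T_Y88A TS12 and wild type embryo cells, a difference of -0.70 ± 0.21, adjusted p = 0.0247. Its relative Ndufa4l2, known for induction by low oxygen, had 3.49 FPKM in Day 4 T_Y88A and 2.36 FPKM in Day 4 wild type cells, against 2.72, 1.75 and 4.51 FPKM in T_Y88A TS13, T_Y88A TS12 and wild type embryo cells, a difference of -0.03 ± 0.30, adjusted p = 0.948. The Ndufa4l2 values of the 2 systems overlapped. Ndufa1, Ndufb7, Ndufs8 and Ndufv3 were also lower, and the other 23 complex I genes did not pass, among them the core subunit Ndufs1 (0.08 ± 0.13, adjusted p = 0.628). Among the lower calls, those for Ndufa1, Ndufa4 and Ndufs8 ended without Day 4 T_Y88A. Ndufa4 also ended without T_Y88A TS13, Ndufs8 without T_Y88A TS12, and Ndufa1 without wild type embryo or Day 4 wild type cells. Over all 14 called genes of complex I, the adjusted p of a lost call was 0.0707 to 0.524 without Day 4 T_Y88A and 0.0525 to 0.144 without any other 1 library.

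Complex II, which is also the succinate dehydrogenase of the tricarboxylic acid cycle, split by its parts. Sdhc, a membrane anchor, had 106 FPKM in Day 4 T_Y88A and 88.7 FPKM in Day 4 wild type cells, against 62.1, 66.7 and 66.8 FPKM in T_Y88A TS13, T_Y88A TS12 and wild type embryo cells, a difference of 0.58 ± 0.14, adjusted p = 0.00911. Sdhd, the other anchor, had 149 FPKM in Day 4 T_Y88A and 139 FPKM in Day 4 wild type cells, against 102, 110.2 and 79.3 FPKM in T_Y88A TS13, T_Y88A TS12 and wild type embryo cells, a difference of 0.62 ± 0.14, adjusted p = 0.0064. Sdha, the catalytic subunit that binds FAD, had 41.6 FPKM in Day 4 T_Y88A and 59.9 FPKM in Day 4 wild type cells, against 79.1, 74.9 and 90.6 FPKM in T_Y88A TS13, T_Y88A TS12 and wild type embryo cells, a difference of -0.75 ± 0.14, adjusted p = 0.00256. The anchors were above and Sdha below every embryo value in both Day 4 libraries. Sdhb, the iron-sulfur subunit, had 65.2 FPKM in Day 4 T_Y88A and 63.3 FPKM in Day 4 wild type cells, against 64.6, 87.5 and 63.9 FPKM in T_Y88A TS13, T_Y88A TS12 and wild type embryo cells, a difference of -0.12 ± 0.17, adjusted p = 0.564. The call for Sdhc ended without Day 4 T_Y88A (adjusted p = 0.105).

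In complex III, Uqcrq, a small subunit that binds near cytochrome b, had 4.20 FPKM in Day 4 T_Y88A and 12.7 FPKM in Day 4 wild type cells, against 35.9, 40.0 and 44.5 FPKM in T_Y88A TS13, T_Y88A TS12 and wild type embryo cells. The Day 4 values were lower than every embryo value and differed between themselves, and the difference was -2.40 ± 0.25, adjusted p = 0.000177. RefSeq places Uqcrq (chr11:53427922-53430831) over part of Gdf9. Uqcrb, at the levels given above, differed by -0.74 ± 0.17, adjusted p = 0.00723. Uqcr11, another small subunit, had 104 FPKM in Day 4 T_Y88A and 75.3 FPKM in Day 4 wild type cells, against 124, 138 and 109.6 FPKM in T_Y88A TS13, T_Y88A TS12 and wild type embryo cells, a difference of -0.41 ± 0.14, adjusted p = 0.0325.

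2 complex III genes rose. Uqcrc1, a core protein, had 73.9 FPKM in Day 4 T_Y88A and 66.1 FPKM in Day 4 wild type cells, against 43.9, 53.6 and 49.6 FPKM in T_Y88A TS13, T_Y88A TS12 and wild type embryo cells, a difference of 0.52 ± 0.15, adjusted p = 0.0194. Uqcrfs1, the Rieske iron-sulfur protein, had 87.2 FPKM in Day 4 T_Y88A and 66.7 FPKM in Day 4 wild type cells, against 61.6, 72.8 and 43.6 FPKM in T_Y88A TS13, T_Y88A TS12 and wild type embryo cells, a difference of 0.47 ± 0.14, adjusted p = 0.0254; Day 4 wild type lay below T_Y88A TS12 in this gene. The calls for Uqcrb and Uqcrc1 ended without Day 4 T_Y88A (adjusted p 0.104 and 0.158) and that for Uqcrc1 also without T_Y88A TS13. The calls for Uqcr11 and Uqcrfs1 ended without T_Y88A TS13, wild type embryo or Day 4 wild type cells, and that for Uqcr11 also without T_Y88A TS12 (adjusted p 0.0616 to 0.115).

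The genes around the complexes moved in both directions too. Of 9 electron carriers and subunits outside the naming rule, 1 was higher and 5 were lower at Day 4. Cycs, which encodes cytochrome c, had 62.7 FPKM in Day 4 T_Y88A and 66.5 FPKM in Day 4 wild type cells, against 138, 160.0 and 148 FPKM in T_Y88A TS13, T_Y88A TS12 and wild type embryo cells, a difference of -1.19 ± 0.14, adjusted p = 0.000259. Usmg5, a small protein of ATP synthase, had 85.1 FPKM in Day 4 T_Y88A and 137 FPKM in Day 4 wild type cells, against 299.9, 392 and 280.1 FPKM in T_Y88A TS13, T_Y88A TS12 and wild type embryo cells, a difference of -1.58 ± 0.23, adjusted p = 0.000811. Etfdh, which passes electrons from fatty acid oxidation to ubiquinone, was the 1 gene that rose, by 0.99 ± 0.15, adjusted p = 0.00101.

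Of 41 assembly factors in the table, 5 were higher and 12 lower. Ndufaf3, needed to build the complex I arm, had 13.03 FPKM in Day 4 T_Y88A and 6.81 FPKM in Day 4 wild type cells, against 1.30, 2.15 and 0.811 FPKM in T_Y88A TS13, T_Y88A TS12 and wild type embryo cells, a difference of 2.26 ± 0.22, adjusted p = 0.00012. Ndufaf2, which acts late in complex I assembly, had 20.9 FPKM in Day 4 T_Y88A and 32.8 FPKM in Day 4 wild type cells, against 61.5, 66.4 and 104 FPKM in T_Y88A TS13, T_Y88A TS12 and wild type embryo cells, a difference of -1.60 ± 0.13, adjusted p = 6.18e-05. These factors of the same complex thus lay on opposite sides.

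Of 12 measured regulators of mitochondrial gene expression, 1 rose and 3 fell. Tfam, which packages and transcribes mitochondrial DNA, had 27.6 FPKM in Day 4 T_Y88A and 35.3 FPKM in Day 4 wild type cells, against 46.5, 53.5 and 49.8 FPKM in T_Y88A TS13, T_Y88A TS12 and wild type embryo cells, a difference of -0.68 ± 0.15, adjusted p = 0.00627. Its partner Tfb2m had 3.69 FPKM in Day 4 T_Y88A and 4.38 FPKM in Day 4 wild type cells, against 12.6, 14.0 and 13.4 FPKM in T_Y88A TS13, T_Y88A TS12 and wild type embryo cells, a difference of -1.53 ± 0.17, adjusted p = 0.000221. Nrf1 differed by -0.46 ± 0.14, adjusted p = 0.0241, and Tfb1m by 0.91 ± 0.16, adjusted p = 0.00235. The coactivators Ppargc1a and Ppargc1b were below the filter.

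Among 13 tricarboxylic acid cycle genes, 3 were higher and 5 lower. Mdh2, malate dehydrogenase, had 24.7 FPKM in Day 4 T_Y88A and 25.4 FPKM in Day 4 wild type cells, against 61.2, 65.1 and 64.4 FPKM in T_Y88A TS13, T_Y88A TS12 and wild type embryo cells, a difference of -1.31 ± 0.13, adjusted p = 0.00015. Mitochondrial ribosomal protein genes had 4 higher and 27 lower of 76, and cytosolic ribosomal protein genes 5 higher and 17 lower of 77. These stand beside 25.9% higher and 26% lower over all genes, without a test between lists.

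Between genotypes in the embryo few members passed the test, as was so of all genes. Of 79 genes tested, Uqcr10 and Ndufs5 rose in T_Y88A embryo cells and none fell, by limma with 2 T_Y88A libraries against 1 wild type library. Over 11146 genes the same test called 0.772% higher and 1.63% lower. At an unadjusted p under 0.05 in this fit there were 13 of the 79 members (10 higher, 3 lower), against 1825 of the 11146 genes, so the members were near the background. The mean T_Y88A value was at least 1.5-fold higher than wild type for 7 members (8.86%) and lower for 1 (1.27%), against 4.98% and 5.83% of all genes. The median difference was 0.04 for members and -0.01 for all genes. The fit takes the spread of the lone wild type library to be that of the T_Y88A libraries.

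Uqcr10, a small subunit of complex III (chr11:4701968-4704344), had 54.1 FPKM in T_Y88A TS13 and 66.8 FPKM in T_Y88A TS12 cells, against 34.3 FPKM in wild type embryo cells. The difference was 0.79 ± 0.18, adjusted p = 0.0415. The Day 4 libraries leaned the same way, with 67.2 FPKM in Day 4 T_Y88A cells, against 41.7 FPKM in Day 4 wild type cells. Over all 5 libraries the genotype difference was 0.74 ± 0.15, adjusted p = 0.330, in limma with the system as a covariate. Its RefSeq gene overlaps the predicted gene Gm51883.

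The promoter of Uqcr10 (chr11:4704295-4704594, minus strand) is shown because it was the member with the smallest adjusted p between genotypes in the embryo. It has no capitals, since none of the 3 motif cores occurs in it.
Uqcr10: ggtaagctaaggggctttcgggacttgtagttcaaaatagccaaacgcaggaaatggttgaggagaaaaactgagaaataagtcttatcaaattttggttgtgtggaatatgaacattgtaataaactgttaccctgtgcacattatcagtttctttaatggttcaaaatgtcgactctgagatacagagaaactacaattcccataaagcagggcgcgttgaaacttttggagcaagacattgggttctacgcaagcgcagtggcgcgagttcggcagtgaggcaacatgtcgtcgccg

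Ndufs5, an accessory subunit of complex I that faces the intermembrane space (chr4:123712710-123718186), had 48.5 FPKM in T_Y88A TS13 and 58.7 FPKM in T_Y88A TS12 cells, against 31.1 FPKM in wild type embryo cells. The difference was 0.76 ± 0.18, adjusted p = 0.0494. In the Day 4 libraries the order was the opposite, with 41.9 FPKM in Day 4 T_Y88A cells, against 60.4 FPKM in Day 4 wild type cells, and the difference between the systems in the genotype effect was -1.28 ± 0.27, adjusted p = 0.235, in limma with an interaction term. A pseudogene named after Ndufs5, Ndufs5-ps, could share its fragments. Both calls lay close to the threshold and ended with values rescaled to TPM (adjusted p 0.0734 for Uqcr10 and 0.0805 for Ndufs5) and with quantile normalization (0.105 for both).

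On the log2(FPKM + 1) scale, the same 2 genes were the only members at least 1.5-fold from wild type in the same direction in both T_Y88A embryo libraries, a size that 2.82% of all genes passed upward and 3.89% downward. In plain FPKM, a comparison added after seeing the data, Ndufa4 also passed upward and Ndufa4l2 downward, against 5.21% and 5.77% of all genes. Ndufa4 had 231 FPKM in T_Y88A TS13 and 249 FPKM in T_Y88A TS12 cells, against 154 FPKM in wild type embryo cells, a difference of 0.64 ± 0.15, adjusted p = 0.0532. Ndufa7 had 95.5 FPKM in T_Y88A TS13 and 104 FPKM in T_Y88A TS12 cells, against 65.7 FPKM in wild type embryo cells, a difference of 0.59 ± 0.16, adjusted p = 0.081. In the other direction, Ndufa4l2 had 2.72 FPKM in T_Y88A TS13 and 1.75 FPKM in T_Y88A TS12 cells, against 4.51 FPKM in wild type embryo cells, the largest negative difference of the 79 at -0.78 ± 0.27, adjusted p = 0.176. Ndufa5 had 215 FPKM in T_Y88A TS13 and 246 FPKM in T_Y88A TS12 cells, against 344 FPKM in wild type embryo cells, a difference of -0.58 ± 0.16, adjusted p = 0.0815. None of these 4 genes passed. By complex, median differences of the mean were 0.02 for I, 0.09 for II, 0.18 for III, 0.18 for IV and -0.0029 for V. They depended on the library: for T_Y88A TS13 alone the medians were -0.09 in I, -0.04 in II, 0.07 in III, 0.0044 in IV and -0.07 in V, and for T_Y88A TS12 alone 0.22, 0.22, 0.28, 0.14 and 0.14. The sign thus differed between the libraries for complexes I, II and V.

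**Figure D4:**
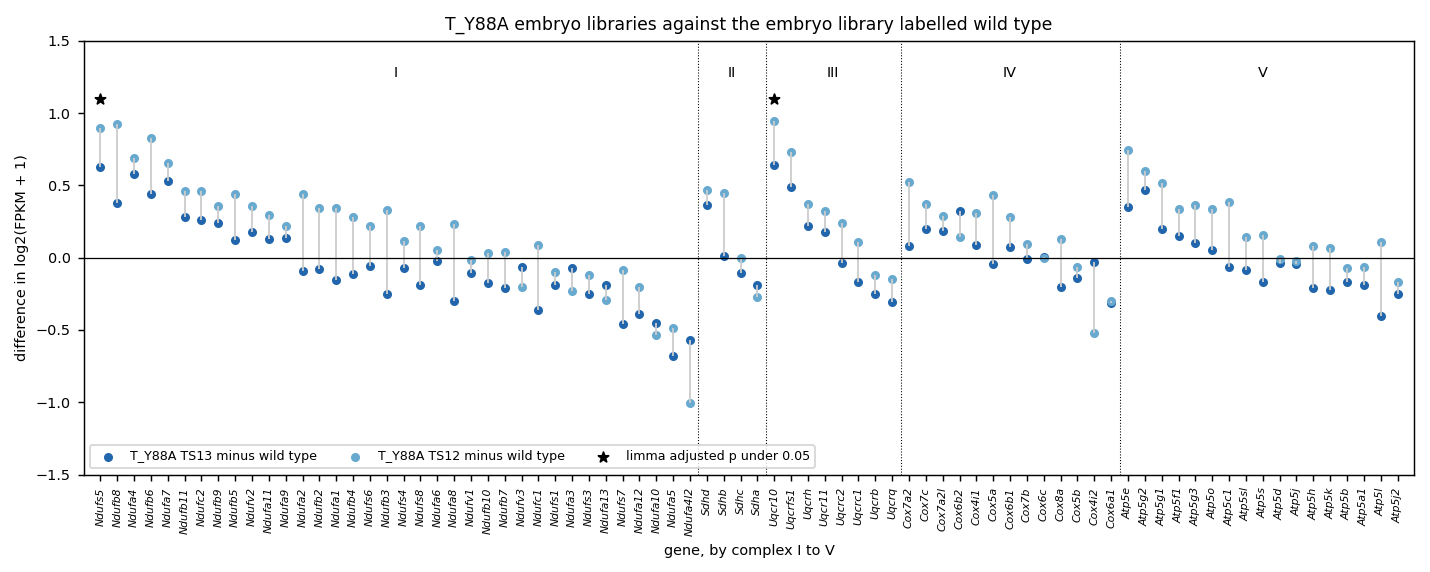
Difference from the wild type embryo library in log2(FPKM + 1) for 78 of the 79 genes, by complex; dark points are T_Y88A TS13, light points T_Y88A TS12, and stars mark limma adjusted p under 0.05. Most light points lie above their dark partner, and the only stars are over Ndufs5 and Uqcr10.

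Outside the subunits, 1 assembly factor was called in each direction. Tmem126b, a complex I assembly factor, had 10.3 FPKM in T_Y88A TS13 and 8.13 FPKM in T_Y88A TS12 cells, against 4.07 FPKM in wild type embryo cells, a difference of 1.00 ± 0.23, adjusted p = 0.0401. Ndufaf2 had 61.5 FPKM in T_Y88A TS13 and 66.4 FPKM in T_Y88A TS12 cells, against 104 FPKM in wild type embryo cells, a difference of -0.70 ± 0.16, adjusted p = 0.044. No carrier, regulator, tricarboxylic acid cycle or mitochondrial ribosomal gene passed (0 of 9, 12, 13 and 76), and 2 of 77 cytosolic ribosomal protein genes were higher. Erythroid markers summed to 2795 FPKM in T_Y88A TS13 and 1383 FPKM in T_Y88A TS12, against 8127 FPKM in wild type embryo cells, and presomitic markers to 12.1 and 19.1 FPKM, against 98.1 FPKM. The part of these cells in the differences was not tested.

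Over all 5 libraries, with the system as a covariate, limma called 0 of 80 members for genotype. The background of adjusted calls was 0.0172% of 11604 genes higher and 0.0603% lower. At an unadjusted p under 0.05 there were 13 members, against 1117 of the 11604 genes. No member's genotype effect differed between the systems past the threshold (0 of 80), where 0.0776% of all genes had a larger and 0.0603% a smaller effect at Day 4. For that term 19 members had an unadjusted p under 0.05, against 1472 of the 11604 genes.

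The 2 stages of T_Y88A embryos differed in a shallow but widespread way. Of 80 genes, 71 (88.8%) were lower in T_Y88A TS13 than in T_Y88A TS12, against 51.8% of 11058 genes. The median difference was -0.19 for members and -0.01 for all genes. The count covered 32 of 37 complex I genes, 3 of 4 in complex II, 8 of 8 in complex III, 11 of 14 in complex IV and 17 of 17 in complex V. With 1 library per stage there is no replicate check and no test, and with TPM or quantile scaling, alternatives chosen after seeing the data, the count was 67 of 80 each.

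Single differences were small. On the log2(FPKM + 1) scale, only Ndufb3, an accessory subunit of the complex I membrane arm, was at least 1.5-fold lower, with 36.5 FPKM in T_Y88A TS13 and 55.2 FPKM in T_Y88A TS12 cells (2.73% of all genes were as far down). None was 1.5-fold higher on that scale, against 2.6% of all genes; in plain FPKM Ndufa4l2 was, against 5.24% of all genes, and Ndufb3 stayed the 1 lower gene, against 4.75%. The beta subunit gene Atp5b had 428 FPKM in T_Y88A TS13 and 459 FPKM in T_Y88A TS12 cells, and Atp5c1 had 190.1 FPKM in T_Y88A TS13 and 259.6 FPKM in T_Y88A TS12 cells. Both follow the common direction, the first weakly.

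The 9 exceptions were Cox4i2, Ndufa4l2, Cox6b2, Ndufa3, Ndufv3, Ndufa13, Ndufa10, Sdha and Cox6c. Cox4i2 had 21.5 FPKM in T_Y88A TS13 and 15.0 FPKM in T_Y88A TS12 cells, a difference of 0.49, and Ndufa4l2 had 2.72 FPKM in T_Y88A TS13 and 1.75 FPKM in T_Y88A TS12 cells, a difference of 0.44. These are the isoforms known for use in low oxygen, and they were picked out after their values were seen. Ndufa4l2 was low in both libraries and overlaps Shmt2 in RefSeq. Between Day 4 and embryo the pair did not move together (-3.08 for Cox4i2, -0.03 for Ndufa4l2). A part of oxygen was not tested. Other lists leaned the same way as the subunits: 35 of 41 assembly factors (85.4%), 66 of 76 mitochondrial ribosomal genes (86.8%), 10 of 13 tricarboxylic acid cycle genes (76.9%), 59 of 77 cytosolic ribosomal genes (76.6%), 6 of 9 carriers and subunits outside the naming rule (66.7%) and 8 of 12 regulators (66.7%) were lower in TS13.

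Set against the wild type embryo library, which both comparisons share, the member median was -0.07 for T_Y88A TS13 and 0.22 for T_Y88A TS12. 30 genes (38%) were above wild type in both libraries, 24 (30.4%) below in both, and 25 (31.6%) lay on both sides, against 37%, 38% and 25% of all 11146 genes. T was at 26.99 FPKM in T_Y88A TS13 and 69.8 FPKM in T_Y88A TS12, Pou5f1 at 6.07 and 55.7 FPKM, and the neural markers summed to 63.4 and 39.5 FPKM. The relative depth was 0.971 in TS13 and 0.754 in TS12. The part of these in the stage difference was not tested.

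**Figure D5:**
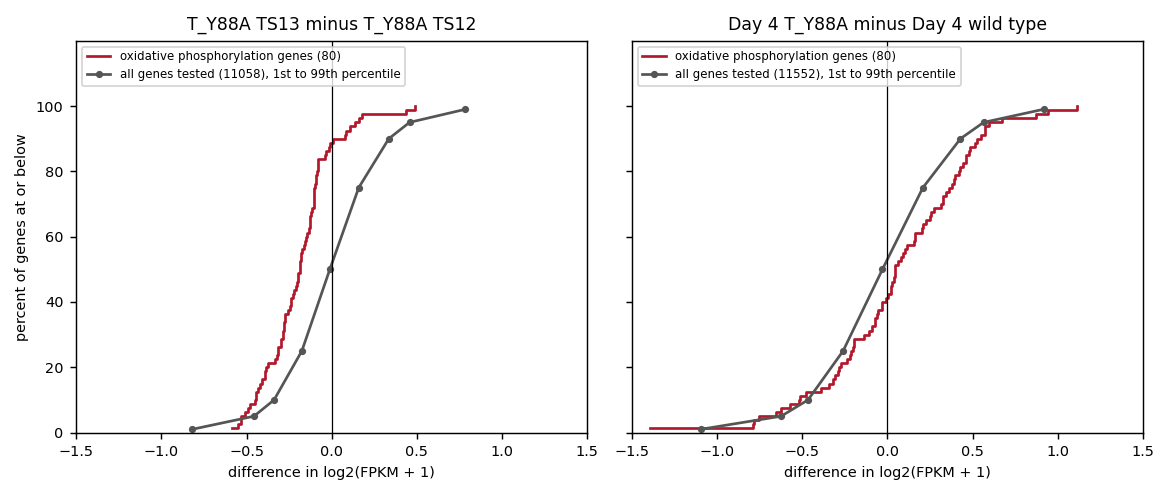
Cumulative percent of genes by difference in log2(FPKM + 1), for T_Y88A TS13 minus T_Y88A TS12 (left) and Day 4 T_Y88A minus Day 4 wild type (right); red steps are the 80 genes and grey points percentiles of all genes tested. On the left the red line crosses 0 at 88.8%, against 51.8% for all genes, and on the right the medians are 0.04 and -0.03.

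At Day 4 the genotypes differed without a common direction. The member median of Day 4 T_Y88A minus Day 4 wild type was 0.04, against -0.03 over 11552 genes, and 47 genes were higher and 33 lower. On the log2(FPKM + 1) scale, 5 genes were at least 1.5-fold apart upward and 6 downward, or 6.25% and 7.5% of 80, against 4.54% and 5.95% of all genes. In plain FPKM Ndufs8 was also 1.5-fold lower, with 13.8 FPKM in Day 4 T_Y88A cells, against 20.9 FPKM in Day 4 wild type cells, which made 7 downward (8.75%), against 8.97% of all genes, while the 5 upward stood against 7.6%. With 1 library per genotype there is no replicate check and no test. The Rn45s level and the low relative depth of Day 4 T_Y88A given above stand beside these values, and their part was not tested.

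Of the 5 higher genes, 3 belonged to complex V. Atp5e, the epsilon subunit of the central stalk, had 125 FPKM in Day 4 T_Y88A and 57.1 FPKM in Day 4 wild type cells, against 104, 137 and 81.5 FPKM in T_Y88A TS13, T_Y88A TS12 and wild type embryo cells. Atp5d, the delta subunit beside it, had 33.7 FPKM in Day 4 T_Y88A cells, against 18.0 FPKM in Day 4 wild type cells. Atp5k, subunit e of the membrane part, had 252 FPKM in Day 4 T_Y88A cells, against 167 FPKM in Day 4 wild type cells. In complex I, Ndufb8 had 143 FPKM in Day 4 T_Y88A cells, against 74.1 FPKM in Day 4 wild type cells, and Uqcr10 of complex III was given above. Atp5e, at a difference of 1.12, was the only one over 2-fold.

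The lower genes came from 4 complexes. Uqcrq had 4.20 FPKM in Day 4 T_Y88A cells, against 12.7 FPKM in Day 4 wild type cells, a difference of -1.40 and the only one over 2-fold. Uqcrb had 339.6 FPKM in Day 4 T_Y88A cells, against 587 FPKM in Day 4 wild type cells, and Ndufs4, an accessory subunit of complex I, had 73.3 FPKM in Day 4 T_Y88A cells, against 127 FPKM in Day 4 wild type cells. Cox6c, Cox6b2 and Atp5j, also lower in Day 4 T_Y88A, had differences of -0.75, -0.65 and -0.63. Uqcrq, Uqcrb, Cox6c, Cox6b2 and Atp5j had also passed the test between Day 4 and embryo, which uses the same libraries.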

How the data were processed

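RNA sequencing was used from 5 libraries of T-positive cells sorted by flow cytometry into lysis buffer and prepared with a ScriptSeq v2 low input kit, per the labels' protocols. The values are FPKM, used as the authors deposited them, in 1 column per library, and 0 columns were left unused. Per the submitters' processing notes, TopHat2 2.0.8, Cufflinks 2.1.1, bedtools 2.23.0 and the mm10 build were used in the series; roles, annotation and strand setting are not given in the sources used here. The column matched to the wild type embryo library begins like the T_Y88A columns, so its genotype rests on the label. The 7 chromatin samples were not analysed here.

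Values were analysed as log2(FPKM + 1), which understates differences of low genes, for genes that averaged at least 1 FPKM in the libraries of a comparison; 785 small RNA genes were left out. R 4.3.3 with limma 3.58.1 fitted a variance trend across all genes, with two-sided p-values, Benjamini-Hochberg adjustment over all genes tested and a threshold of 0.05; every adjusted p in the text comes from limma. The embryo fit had 1 residual degree of freedom (prior 11.0). The 5-library fit with system and genotype had 2 (prior 6.06), and the fit with their interaction had 1. Comparisons of 1 library with 1 had no test and used a rule of 1.5-fold on that scale, with plain FPKM as an alternative added later. Relative depth came from the step between values below 0.06 FPKM; with absolute depth unknown, no counting interval or detection limit can be given. An exact 0 can be a failed estimate.

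Members and gene lists were chosen with earlier results of these data known. Values in every library are given for the 3 highest members of each complex, for members called (the 3 smallest adjusted p where more than 5 share a complex and direction), for members 1.5-fold apart in both T_Y88A embryo libraries or at least 2-fold apart between single libraries, and for alternative genes of a subunit; others were named after their values were seen. 1 member and 1 gene of the other lists enter the counts but are not reported here singly. Of 84 members, 81 matched RefSeq (GRCm38.p6) by symbol and 3 by synonym, and 69 had a promoter sequence there; 27 overlap another RefSeq gene and 9 share a name with a pseudogene. Coordinates count from 1. Plots used Python 3.11.15 with pandas 2.3.3 and matplotlib 3.10.9. The alternatives were other pseudocounts, filters, scalings and variance estimates, each library left out, and fits with other covariates.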

Additional observations from a re-analysis of the deposited data

How the results depend on the processing

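The count of members called between T_Y88A and wild type embryos (2) rested on values near the threshold. It was 1 with a pseudocount of 0.1 or 0.5, where Uqcr10 remained, and 0 with no filter, TPM scaling, quantile normalization, small RNA genes kept, no variance trend, or a fit over all 5 libraries with separate genotype effects; it was 3 with a mean of at least 5 FPKM and 2 with robust variance estimates. Over these settings the adjusted p was 0.0311 to 0.357 for Uqcr10 and 0.0381 to 0.355 for Ndufs5. Calls over all genes moved likewise, with 268 in the reported fit, 113 with TPM scaling, 33 with quantile normalization, 22 in the 5-library fit and 0 with no filter, where 17371 genes were tested. Leaving out T_Y88A TS12 or T_Y88A TS13 there left no residual degree of freedom, so only medians were had, of -0.07 without TS12 and 0.22 without TS13; leaving out the wild type library gave no value. Members 1.5-fold apart in both T_Y88A libraries were 4 with TPM scaling or in plain FPKM (added after seeing the data), 3 with a pseudocount of 0.1 or 0.5 or quantile normalization, and 0 at 2-fold, against 2.

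Day 4 against embryo calls numbered 29 (without Day 4 T_Y88A) to 43 (TPM scaling) around the reported 42, 32 with no filter, and no call changed sign. The member median of that comparison was 0.193 with quantile normalization (all genes -0.03), against -0.0354 reported. It was 0.102 with TPM scaling, where all genes moved to 0.129; the cause was not tested. Genotype calls over 5 libraries stayed at 0 under the 14 alternatives run. The medians of T_Y88A TS13 against T_Y88A TS12 lay between -0.189 and -0.114, and the added count of genes lower in TS13 between 67 and 72. No paired analysis was possible because the labels give no replicate numbers and each system and genotype holds 1 or 2 libraries. Calls in the embryo rest on 1 wild type library, and the lower relative depth of Day 4 T_Y88A limits its low values.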
